A study of Bos taurus with 8 samples.

Results

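The genes described here build ribosomes and trim RNA: subunits of RNA polymerases I and III, of the RNA exosome and of RNase P and RNase MRP, the proteins of small nucleolar RNPs (snoRNPs), and the assembly factors of both ribosomal subunits. They were taken by gene symbol alone (all symbols beginning with POLR1, POLR3, EXOSC, NOP, NOL, UTP, RRP or RPP and a number, with *RRN3*, *IMP3*, *IMP4*, *PES1*, *BRIX1*, *GAR1*, *FBL*, *NHP2*, *NHP2L1* and the POP genes), so that the rule itself used no measured value. The choice of these genes was, however, made with earlier results of these data known. The array held 57 such genes among 12552 genes with a symbol, with 115 of 43653 gene probes. *BOP1*, *RRS1*, *NCL* and the nucleophosmins were not analysed here. RNA polymerase I transcribes the long precursor of the ribosomal RNAs in the nucleolus, and RNA polymerase III transcribes the smallest ribosomal RNA and the transfer RNAs. SnoRNPs guide the chemical modification of the precursor, assembly factors fold and cut it, and the exosome, a barrel of catalytically inactive subunits with attached nucleases, trims its ends and degrades the excised spacers. In cattle the embryonic genome is activated during the cleavage divisions, when functional nucleoli also form, so that the morula is a stage at which the embryo makes its own ribosomes.

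*Bos taurus* embryo material of 4 groups was compared on 8 arrays, with 2 samples per group: morulae of day 5, and whole blastocysts, inner cell masses (ICM) and trophectoderm (TE) of day 9. All embryos came from slaughterhouse oocytes that were matured and fertilized in vitro and then cultured in synthetic oviduct fluid, and each sample was a pool of embryos. The ICM was cut from the TE by hand with tungsten needles, and per the study some TE cells stayed with the ICM. Every sample was hybridized on a two-colour array against a common pool of blastocyst RNA, and the dyes were swapped, so that replicate 1 carried Cy3 and replicate 2 carried Cy5. The measurement is therefore a log2 ratio of sample to pool, and a value of 0 is the level of the pool for that probe. Values of different genes were not set against each other, because a ratio to the pool carries no absolute level. The study's list of samples equates both blastocyst samples with blastocyst pools. The samples of a group were separate pools of embryos, but with 2 per group the p-values rest on a spread estimated over all 4 groups.

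Over the gene probes, the median intensity of the sample channel ran from 229.9 to 536, the local background from 47.5 to 60.1, and the share of probes above background from 90.3% to 94.8%. The log2 ratios of the 2 replicates correlated across probes at 0.92 for morulae, 0.37 for the ICM, 0.52 for the TE and -0.55 for blastocysts. The single-sample ratios given here were not corrected for dye bias of single probes, and the replicates of a group differ in dye. With the deposited ratios, which were corrected for it, they correlated at 0.75 and 0.73 for blastocysts and 0.88 and 0.92 for ICM. For TE this was 0.97 and 0.93, and for morulae 0.99 and 0.97. The part of dye bias in the value of -0.55 was not tested. Of the genes listed as markers, 4 of 4 measured epiblast genes were higher in the ICM than in the TE (*NANOG* 13.2-fold, *SOX2* 8.67-fold), and 2 of 4 trophectoderm genes were higher in the TE (*GATA3* 2.07-fold, *PAG2* 2.12-fold). Of the primitive endoderm genes 1 of 4, *NID1*, was higher in the ICM (6.68-fold), with each gene read by its brightest probe. The study used the most 3' probe of a gene, and it lists *HNF4A* and *PDGFRA* among the genes most raised in the ICM over the TE. The part of the choice of probe was not tested. Against morulae, 4 of 4 trophectoderm genes were higher in blastocysts (*PAG2* 30.3-fold) and 5 of 6 genes of the oocyte and cleavage stages were higher in morulae (*ARGFX* 16.8-fold), while of 4 measured cumulus cell genes 0 were called between blastocyst and morula (2 passed at any fold, both higher in blastocysts). The part of the trophectoderm and cleavage-stage genes, which differed between the same stages as the genes of ribosome biogenesis, was not tested. Of the 57 genes, 54 lay above the background on all 8 arrays, the exceptions being *POLR1C*, *NOL9* and *POLR3G*, and 3 reached saturation on at least 1 array (*EXOSC5*, *NOL7* and *UTP6*).

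Genes of ribosome biogenesis stood higher in morulae than in blastocysts across nearly every complex. A gene was called different at an adjusted p under 0.05 (limma, Benjamini-Hochberg over all gene probes) and at least 2-fold, with each gene represented by its brightest probe. By that rule 24 of the 57 genes were higher in morulae, against 7.15% of all genes on the array, and 1, *NOL3*, was higher in blastocysts, against 10.2% of all genes. Without a fold minimum the adjusted p passed for 42 genes towards the morula, against 18.7% of all genes, and for 2 towards the blastocyst, against 21.1%. The difference lay on the side of the morula for 51 of 57 genes, with a median of -0.83 (blastocyst minus morula, log2), where the median of all genes was 0.04. Genes passing in the array as a whole went more often towards the blastocyst, with 1280 higher there and 898 higher in morulae. Centred on the median of each array in place of loess, the whole array split into 1072 and 1261 genes, and 30 of the 57 were called. In pooled embryos a smaller share of cells that express a gene and less of its RNA per cell cannot be told apart. Since a fixed amount of labelled RNA was hybridized per channel, a change in the total RNA per cell cannot be told apart from these either.

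The same shift showed in the single samples. The median log2 ratio over the 57 genes was 0.80 and 0.74 for the morula samples, 0.04 and -0.18 for blastocysts, 0.10 and 0.05 for ICM and -0.13 and -0.21 for TE. Both morula samples were thus apart from the other 6, which lay near the level of the pool. The pool was itself made of blastocysts, so a blastocyst level near it follows from the design. The group mean was highest in morulae for 49 of the 57 genes, where 36.6% of all genes had their highest mean, and lowest in the TE for 37 of them, where 24.3% of all genes had their lowest. With any of the 4 arrays compared left out, the median difference between blastocyst and morula lay between -0.91 and -0.71.

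**Figure D1:**
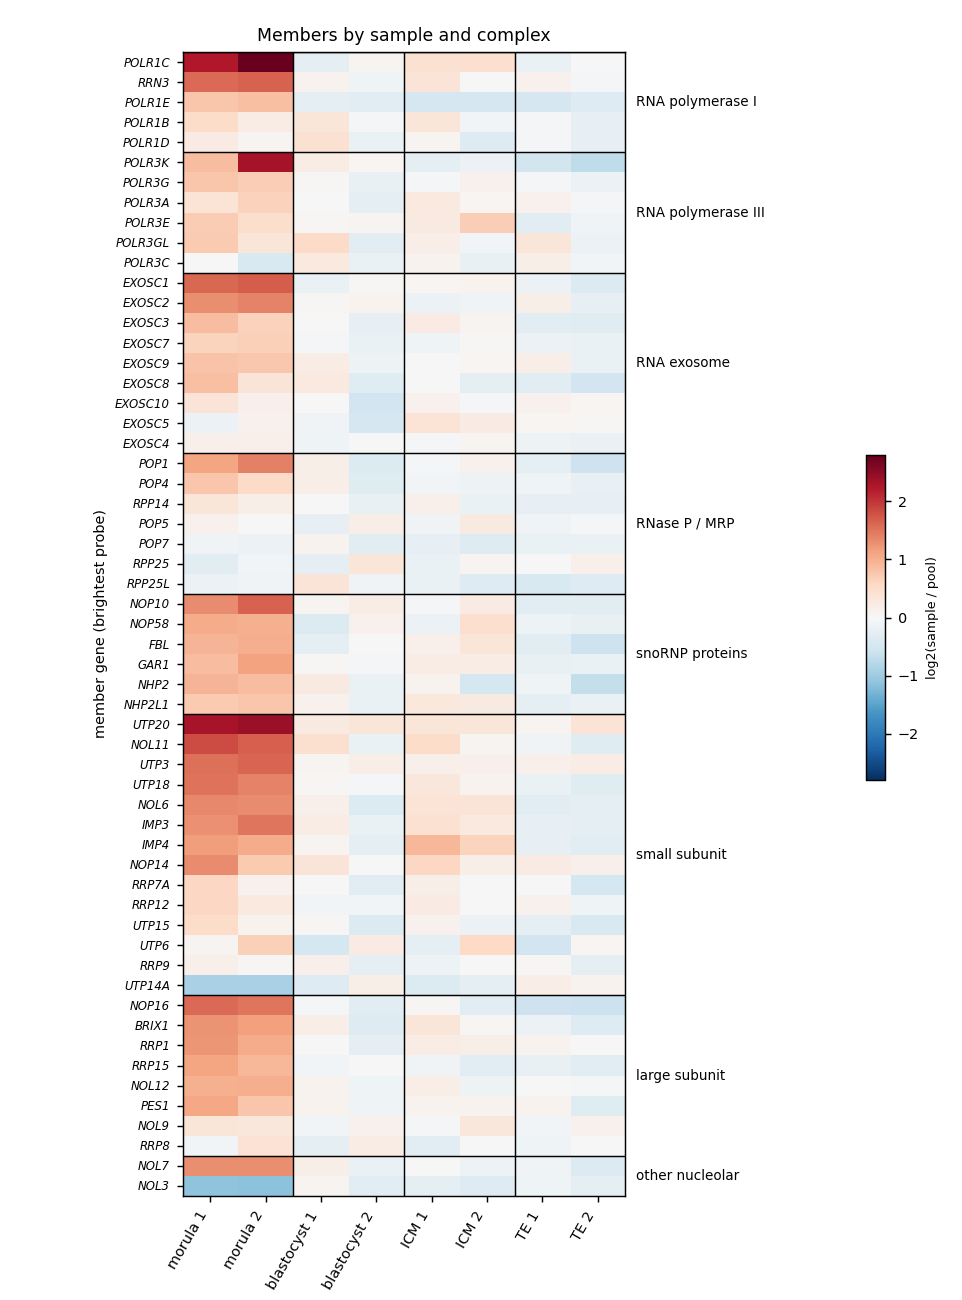
Log2 ratio of sample to blastocyst pool for the 57 genes (rows, grouped by complex) in the 8 samples (columns), with the colour scale from -2.8 to 2.8 and the brightest probe per gene. The 2 morula columns stand above the pool in most rows (medians 0.80 and 0.74), and *UTP14A* and *NOL3* run the other way.

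The RNA polymerase I genes included the largest difference of the set. *POLR1C*, a subunit shared by RNA polymerases I and III, had log2 ratios of 2.23 and 2.77 for morulae, -0.26 and 0.07 for blastocysts, 0.42 and 0.47 for ICM and -0.19 and 0.00 for TE. Both morula samples were far above every other sample, and the difference was -2.60 ± 0.13 (SE, n = 2 per group), 6.07-fold higher in morulae (adjusted p = 8.67e-05). The spot gave a sample-channel mean of 3367 and 4476 in the morula samples and of 244 to 508 in the other 6, over local background medians of 45 to 66.5. Local background standard deviations around this spot reached 1819, so that by the rule for background it was above background in both morula samples, in 1 blastocyst sample, in 1 TE sample and in no ICM sample. With normexp background correction the difference was -3.28 but no longer passed (adjusted p = 0.0543).

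*RRN3*, the factor that recruits RNA polymerase I to ribosomal DNA, read 1.59 and 1.66 for morulae, 0.09 and -0.12 for blastocysts, 0.35 and 0.01 for ICM and 0.11 and -0.03 for TE, and was 3.10-fold higher in morulae than at the blastocyst stage (adjusted p = 2.52e-04). *POLR1E*, a subunit of polymerase I alone, was 2.15-fold higher in morulae (difference -1.10 ± 0.09, adjusted p = 3.76e-04), with 0.77 and 0.85 in morulae and values of -0.28 to -0.47 in the other 6 samples. The groups did not overlap for any of these 3 genes. For *POLR1B*, which encodes the second largest subunit, the difference was -0.21 (95% interval -0.46 to 0.04, adjusted p = 0.194). *POLR1D*, the other shared subunit, had a difference of -0.04 (95% interval -0.37 to 0.30) by its brightest probe, so that 3 of the 5 genes of this list, *RRN3* included, were called. Polymerase I subunits under older symbols were counted with the related genes and not called. They were *CD3EAP* (means of 0.02 in morulae and -0.04 in blastocysts), *TWISTNB* (0.28 and -0.09) and *ZNRD1* (0.73 and 0.11), named after their values were seen.

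Of the 6 measured genes of RNA polymerase III, 1 was called and 4 passed the adjusted p at any fold, all of them towards the morula. *POLR3K*, a small subunit that takes part in transcript cleavage and termination, read 0.86 and 2.34 for morulae, 0.20 and 0.05 for blastocysts, -0.26 and -0.16 for ICM and -0.51 and -0.71 for TE. The 2 morula samples lay far apart, yet both above all others, and the difference of -1.47 ± 0.40 was 2.78-fold (adjusted p = 0.034). It rested on single samples: without morula replicate 2 the difference was -0.69 (adjusted p = 0.0288), without blastocyst replicate 1 it was -1.78 (adjusted p = 0.0622), and without blastocyst replicate 2 it was -1.17 (adjusted p = 0.176). It did not pass with normexp (adjusted p = 0.0609) or with the deposited log2 ratios (adjusted p = 0.0636). *POLR3G*, the subunit paralog that in mouse and human marks pluripotent cells, was 1.77-fold higher in morulae (adjusted p = 0.00325), *POLR3A*, the largest subunit, 1.58-fold (adjusted p = 0.0154) and *POLR3E* 1.46-fold (adjusted p = 0.0404), all under the fold minimum. *POLR3GL*, the paralog of *POLR3G*, did not pass, at 1.35-fold (adjusted p = 0.0822), and neither did *POLR3C*, whose difference of 0.26 lay on the side of the blastocyst (adjusted p = 0.101).

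All 9 measured exosome subunits had lower values in blastocysts than in morulae, 2 of them called and 7 passing the adjusted p at any fold. *EXOSC1*, a protein of the cap that binds incoming RNA, read 1.61 and 1.69 for morulae, -0.19 and 0.04 for blastocysts, 0.06 and 0.09 for ICM and -0.15 and -0.38 for TE, a 3.31-fold difference between morula and blastocyst (adjusted p = 2.47e-04). *EXOSC2*, another cap protein, was 2.43-fold higher in morulae (adjusted p = 0.0011), with 1.31 and 1.39 there and values of -0.24 to 0.16 in the other 6 samples. The groups stood apart for both genes, although with normexp *EXOSC2* fell below the fold minimum (-0.98). *EXOSC3*, which completes the cap, was 1.82-fold higher. The ring subunits *EXOSC7*, *EXOSC9* and *EXOSC8* were 1.71-fold, 1.67-fold and 1.54-fold higher in morulae, and *EXOSC10*, the nuclear exonuclease, 1.43-fold (adjusted p = 0.0289). The ring subunits *EXOSC5* and *EXOSC4* did not pass (adjusted p = 0.297 and 0.199), and *EXOSC5*, saturated on 2 arrays, overlapped between the groups, with -0.16 and 0.11 in morulae and -0.10 and -0.46 in blastocysts.

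RNase P, which trims the leader of transfer RNAs, and RNase MRP, which cuts the ribosomal RNA precursor, share most of their proteins. Over the 7 measured genes the median difference was -0.09, the nearest to 0 of the 8 lists, 1 was called and 3 passed at any fold. *POP1*, the largest protein of both enzymes, read 1.11 and 1.42 for morulae, 0.16 and -0.38 for blastocysts, -0.06 and 0.13 for ICM and -0.28 and -0.58 for TE, a 2.59-fold difference between morula and blastocyst (adjusted p = 0.00428). The morula samples were above all others. *POP4* (1.66-fold) and *RPP14* (1.28-fold, adjusted p = 0.0486) passed below the fold minimum. The differences of *POP5*, *POP7*, *RPP25* and *RPP25L* lay between -0.09 and 0.25 and none passed; for *POP5* the 95% interval was -0.46 to 0.27.

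All 6 measured snoRNP proteins passed the adjusted p towards the morula, and 4 of them were called, with a median difference of -1.06. *NOP10*, of the box H/ACA particles that convert uridine to pseudouridine, read 1.32 and 1.66 for morulae, 0.07 and 0.20 for blastocysts, -0.03 and 0.22 for ICM and -0.31 and -0.31 for TE, and was 2.56-fold higher in morulae than at the blastocyst stage (adjusted p = 3.6e-04). *FBL*, the methyltransferase of the box C/D particles, read 0.95 and 1.01 for morulae, -0.27 and 0.01 for blastocysts, 0.13 and 0.33 for ICM and -0.33 and -0.58 for TE, a 2.16-fold difference (adjusted p = 0.00197). Each morula value of both genes exceeded every value of the other groups. *NOP58*, a scaffold of box C/D particles, was 2.19-fold higher in morulae (adjusted p = 0.00684) and *GAR1*, a box H/ACA protein, 2.01-fold (adjusted p = 0.00115). These calls lay close to the fold minimum: without blastocyst replicate 1 the differences of *FBL* and *NOP58* were -0.98 and -0.97, without morula replicate 1 that of *NOP58* was -0.93 (adjusted p = 0.0509), and *GAR1* stood at -0.86 without morula replicate 2 and -0.91 without blastocyst replicate 2. *NHP2*, a box H/ACA protein, and *NHP2L1*, which binds box C/D RNAs and a spliceosomal RNA, were 1.83-fold and 1.73-fold higher in morulae (adjusted p = 0.005 and 0.00385).

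The factors of the small subunit processome, which forms on the nascent precursor and makes the first cuts, included 7 called genes among 14, and 12 passed at any fold towards the morula. *UTP20*, a large scaffold protein, read 2.31 and 2.42 for morulae, 0.25 and 0.34 for blastocysts, 0.35 and 0.35 for ICM and 0.08 and 0.39 for TE. The replicates agreed closely and the groups were far apart, by -2.07 ± 0.11 or 4.20-fold (adjusted p = 9.05e-05). *NOL11* was 3.07-fold higher in morulae, *UTP3* 2.75-fold, *UTP18* 2.74-fold, *NOL6* 2.73-fold and *IMP3* 2.60-fold, with adjusted p from 1.41e-04 to 0.00107. *IMP4*, which with *IMP3* pairs the guiding snoRNA with the precursor, read 1.18 and 1.05 for morulae, 0.08 and -0.25 for blastocysts, 0.93 and 0.62 for ICM and -0.23 and -0.31 for TE, and was 2.29-fold higher in morulae than at the blastocyst stage (adjusted p = 4.53e-04). Here both ICM samples lay above those of blastocyst and TE. *NOP14* (1.83-fold), *RRP7A*, *RRP12*, *UTP15* and *UTP6* (1.40-fold to 1.43-fold) passed below the fold minimum (by the brightest probe, for *RRP7A* and *UTP6*, whose probes differed in direction), and *RRP9*, a protein of the U3 snoRNP, did not pass (1.11-fold, adjusted p = 0.511).

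*UTP14A*, a processome factor that activates a helicase, ran the opposite way. It read -0.91 and -0.91 for morulae, -0.36 and 0.17 for blastocysts, -0.39 and -0.26 for ICM and 0.18 and 0.10 for TE. Both morula samples were below all others, and blastocysts were 1.76-fold higher (adjusted p = 0.0102), under the fold minimum. Its 4 probes gave 1.69-fold to 2.00-fold in the same direction, and without blastocyst replicate 1 the difference was 1.08 and the gene was called.

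Among the assembly factors of the large subunit, 5 of 8 were called and 6 passed at any fold, all towards the morula, with a median difference of -1.03. *NOP16* read 1.59 and 1.51 for morulae, -0.04 and -0.29 for blastocysts, 0.03 and -0.30 for ICM and -0.59 and -0.61 for TE, 3.28-fold higher in morulae than at the blastocyst stage (adjusted p = 1.69e-04). *BRIX1*, an early factor, was 2.44-fold higher in morulae, *RRP1* 2.40-fold, *RRP15* 2.06-fold and *NOL12* 2.02-fold, with adjusted p from 3.07e-04 to 0.00134. The last pair lay at the fold minimum: *RRP15* was at -0.99 without morula replicate 1 and -0.93 without blastocyst replicate 1, and *NOL12* at -0.90 without morula replicate 2 and -0.97 without blastocyst replicate 2. *PES1*, of the complex that matures the large subunit RNA, was 1.92-fold higher in morulae (adjusted p = 0.0019). *RRP8*, a nucleolar methyltransferase, did not pass (1.14-fold, adjusted p = 0.312), and neither did *NOL9*, a kinase of the precursor that was not above background on either blastocyst array and read 1.24-fold higher in morulae (adjusted p = 0.0924).

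The remaining 2 genes share the nucleolar prefix and moved in opposite directions. *NOL7*, a nucleolar protein, read 1.31 and 1.31 for morulae, 0.16 and -0.18 for blastocysts, -0.02 and -0.14 for ICM and -0.10 and -0.38 for TE, 2.49-fold higher in morulae than at the blastocyst stage (adjusted p = 4.4e-04). *NOL3*, known as a repressor of apoptosis and not as an assembly factor, read -1.13 and -1.15 for morulae, 0.07 and -0.29 for blastocysts, -0.26 and -0.37 for ICM and -0.12 and -0.24 for TE, 2.04-fold higher in blastocysts (adjusted p = 0.001). Its brightest probe fell under the fold minimum with normexp (0.77), with median centring (0.87), without morula replicate 1 (0.95) and without blastocyst replicate 1 (0.89), whereas its other probe gave 2.58-fold. In both genes the morula samples lay outside the range of the other 6.

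**Figure D2:**
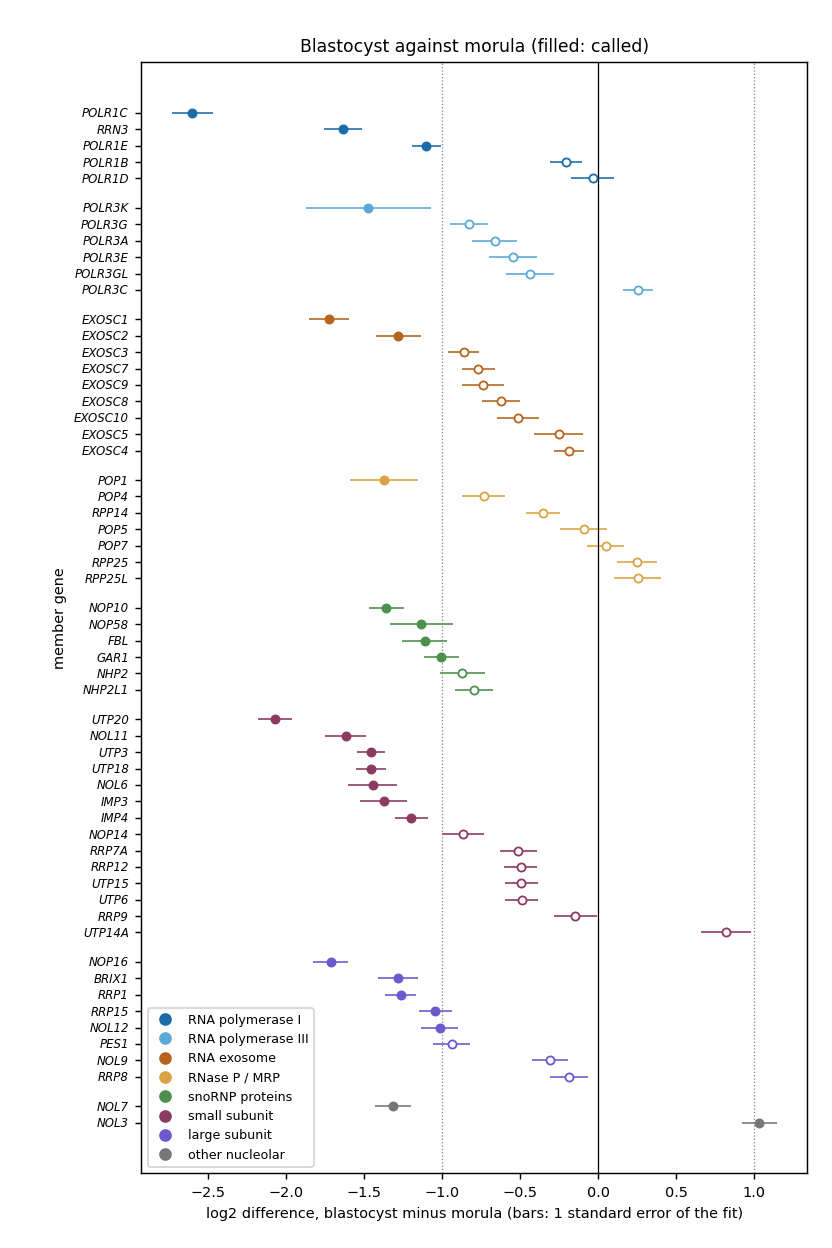
Difference of blastocyst minus morula (log2, x axis) with 1 standard error for the 57 genes, grouped by complex (2 samples per group), filled where the gene was called and with dotted lines at the fold minimum. The differences run from -2.60 for *POLR1C* to 1.03 for *NOL3*, and 51 of 57 lie left of 0.

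Several probes per gene gave a further measure of the same RNAs. Among the 115 probes 37 were higher in morulae, against 5.53% of all gene probes, and 3 were higher in blastocysts, against 6.85%. Several probes were present for 19 of the 25 called genes; in 11 of them a further probe passed on the same side, and in 0 on the other side. For *RRP15* the other 3 probes gave 1.55-fold, 3.00-fold and 1.42-fold, and for *IMP4* they gave 2.18-fold and 2.11-fold towards the morula and 1.06-fold towards the blastocyst. Probes of other genes diverged more: the second probes of *POLR1E*, *POP1*, *NOL11*, *NOL6* and *NOP16* had differences of -0.14, -0.14, -0.13, 0.06 and 0.09. With the mean over all probes of a gene 18 genes were called, beside 1412 of all genes, where the brightest probe gave 25 beside 2178. These 5 genes with *RRP15*, *GAR1* and *IMP4* fell below the fold minimum, at differences from -0.94 (*RRP15*) to -0.62 (*POLR1E*). *POLR1D* was called by 1 of its 4 probes, 3.68-fold higher in blastocysts (adjusted p = 3.47e-04), while the other 3 lay between -0.07 and -0.01. The second probe of *POLR3G* was 2.95-fold higher in morulae. *UTP6* had 3 probes between -0.94 and -0.49 and the fourth at 0.51 (adjusted p = 0.00853). The second probe of *RRP7A* gave 0.53 (adjusted p = 0.0259) where the brightest gave -0.51, and was called 2.09-fold higher in the TE than in morulae (adjusted p = 0.00139). A direction for *UTP6*, *RRP7A* or *POLR1D* thus depended on the probe.

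**Figure D3:**
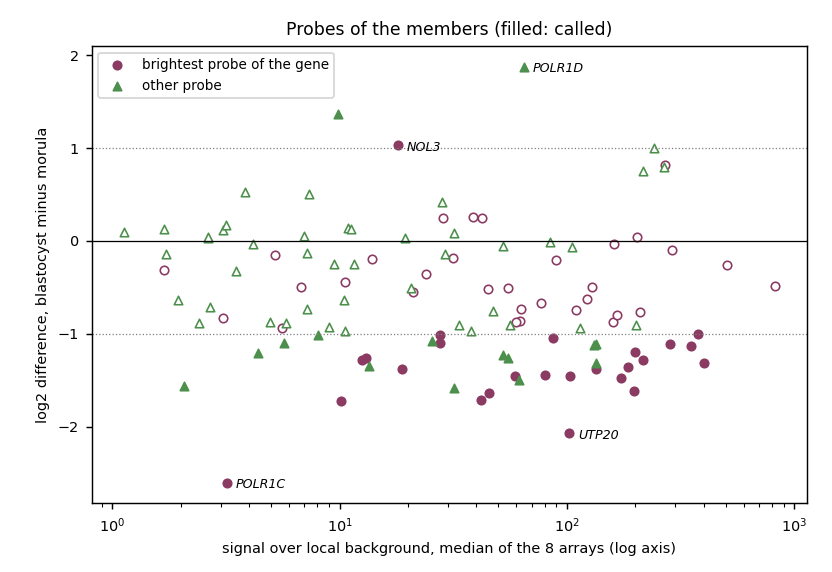
Difference of blastocyst minus morula (log2, y axis) for all 115 probes against the signal over local background (log axis), with circles for the brightest probe of a gene, triangles for its other probes and filled symbols for called probes. Of the probes 37 were called towards the morula and 3 towards the blastocyst.

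Genes of the same pathways outside the symbol rule were examined from a list of 134, of which 103 were measured. That list, too, was chosen with earlier results of these data known. Between blastocyst and morula 32 were higher in morulae, against 7.15% of all genes, and 0 were higher in blastocysts, against 10.2%. The other 71 were not called, and the median difference was -0.63, where that of all genes was 0.04. At any fold the adjusted p passed for 64 towards the morula, against 18.7% of all genes, and for 5 towards the blastocyst, against 21.1%. Of 9 exosome nucleases, exosome cofactors and other RNA nucleases 3 were called: *MPHOSPH6*, a nuclear exosome cofactor (5.16-fold higher in morulae, adjusted p = 2.25e-04), *DIS3L*, the cytoplasmic exosome nuclease (3.16-fold), and *RBM7*, of the complex that delivers nuclear RNAs to the exosome (2.01-fold). Of 23 factors of RNA polymerases I and III 4 were called, among them *TAF1A*, of the polymerase I promoter factor SL1 (3.22-fold), *CRCP*, a polymerase III subunit (2.69-fold), and *GTF3C6*, of TFIIIC (2.45-fold). Of 71 further assembly factors 25 were called, led by *DCAF13*, of the small subunit processome (3.56-fold), *RBM28*, a large subunit factor (3.30-fold), and *ZNHIT6*, which helps to assemble box C/D particles (3.12-fold).

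The ICM and the TE were each compared with morulae to see whether the lower levels of day 9 held in both parts of the blastocyst. Both comparisons use the same 2 morula samples, so their values are given side by side and not counted as separate support. In the ICM 18 of the 57 genes were called, all higher in morulae, against 6.72% of all genes, and the median difference was -0.71 (0.06 over all genes). In the TE 28 were higher in morulae, against 9.14% of all genes, and 1, *UTP14A*, was higher in the TE (2.07-fold, adjusted p = 0.00318), against 11.1%, with a median difference of -0.99 (0.03 over all genes). With arrays centred on the median, 29 genes were called in the ICM comparison. Under that setting the genes higher and lower over the whole array numbered 981 and 1455 for ICM against morula, where the loess values gave 1252 and 844, and 1194 and 1503 for TE against morula, where loess gave 1396 and 1147.

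For several genes the folds in both parts were close. *UTP20* was 4.05-fold higher in morulae than in the ICM (adjusted p = 1.1e-04) and 4.38-fold higher than in the TE (adjusted p = 6.2e-05). *EXOSC2* was 2.78-fold and 2.62-fold higher in morulae, *UTP3* 2.72-fold and 2.66-fold, *RRN3* 2.71-fold and 2.99-fold, and *POLR1E* 2.42-fold and 2.33-fold. *POLR1C* was 6.05-fold higher in morulae than in the TE (adjusted p = 6.36e-05); on the ICM arrays it was not above background by the rule, and the fold against the morula depended on the scale, at 4.16-fold by the ratio to the pool (adjusted p = 1.82e-04) and 6.61-fold by the sample channel alone. With normexp *POLR1C* did not pass in either part (adjusted p = 0.203 in the ICM and 0.0609 in the TE).

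For other genes the fold against the morula was larger in the TE. *NOP16* was 3.21-fold higher in morulae than in the ICM and 4.43-fold higher than in the TE, *NOL11* 2.74-fold and 3.94-fold, *NOP10* 2.63-fold and 3.49-fold, *IMP3* 2.06-fold and 3.10-fold, and *FBL* 1.68-fold and 2.71-fold. Over all genes, too, the TE comparison called more towards the morula than the ICM comparison, 9.14% against 6.72%. By list, the TE comparison called 7 small subunit factors towards the morula against 5 in the ICM, 6 against 3 large subunit factors, 5 against 2 snoRNP proteins and 4 against 2 exosome subunits, with 3 against 3 genes of polymerase I and 1 against 1 of polymerase III. The test of each such difference is that of ICM against TE, given below, and for these 5 genes it did not pass.

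Several calls changed with single samples. In the ICM comparison *BRIX1*, *IMP3* and *NHP2* were lost without morula replicate 2 (-0.88, -0.84 and -0.88) or ICM replicate 2 (-0.994, -0.998 and -0.983), *POP1* without morula replicate 2 (-0.97) or ICM replicate 1 (adjusted p = 0.0593), and *POLR3K*, far above the fold minimum, on its adjusted p without ICM replicate 1 or 2 (-1.95 and -1.67, adjusted p = 0.0701 and 0.1). In the TE comparison *EXOSC8* and *NOP58* were lost without morula replicate 1 (-0.96 and -0.97), *NOL12* and *UTP14A* without morula replicate 2 (-0.91 and 0.95), *EXOSC8*, *NOL12*, *EXOSC3* and *UTP14A* without TE replicate 1 (-0.90, -0.97, -0.99 and 0.90), and *NOP58*, *PES1* and *POLR3K* without TE replicate 2 (-0.96, -0.92 and -1.87, the last with an adjusted p of 0.0515). *UTP14A* was also lost there with normexp (0.94) and median centring (0.82), and *PES1* and *RRP1* with normexp (-0.53 and -0.90). With the mean over probes 15 genes were called in the ICM comparison and 24 in the TE comparison, beside 1366 and 1709 of all genes. Under that setting *NOL11*, *NOP16*, *POLR1E*, *POP1*, *RRP15* and *UTP3* fell below the fold minimum in the ICM, and *EXOSC8*, *GAR1*, *IMP4*, *NOL6*, *POLR1E*, *POP1*, *RRN3* and *RRP1* in the TE.

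**Figure D4:**
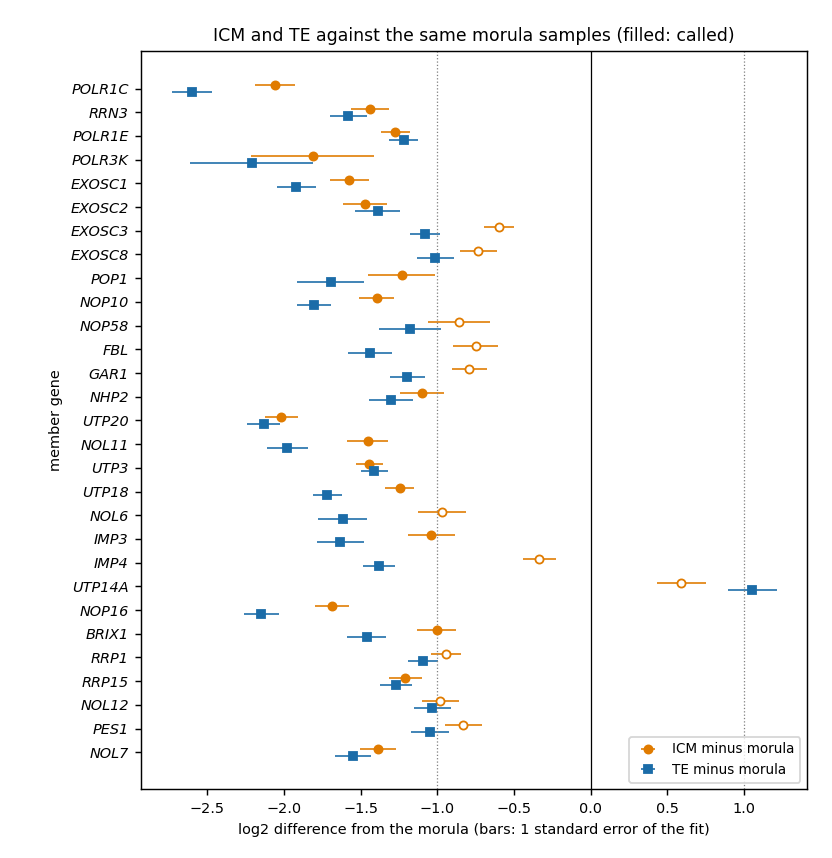
Difference from the morula (log2, x axis) with 1 standard error for the 29 genes called in the ICM or in the TE comparison, with circles for the ICM and squares for the TE (2 samples per group). *UTP20* (-2.02 and -2.13) has nearly the same value in both parts, and *IMP4* (-0.33 in the ICM, -1.38 in the TE) shows the widest gap.

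Between ICM and TE 1 of the 57 genes was called, a share near the background of 1.33% of all genes called higher in the ICM; 0 were called higher in the TE, against 0.231%. At an unadjusted p under 0.05 (limma) 19 were higher in the ICM and 1 in the TE, against 10.4% and 11.4% of all genes. The median difference was 0.17 (ICM minus TE), where the median of all genes was 0.008. In sign, 45 genes were higher in the ICM and 12 in the TE, beside 6504 and 6048 of all 12552 genes. Over the whole array 167 genes were called higher in the ICM and 29 in the TE, a split that became 146 and 78 with median centring and 28 and 0 with normexp.

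The called gene was *IMP4*, with log2 ratios of 0.93 and 0.62 for ICM and -0.23 and -0.31 for TE, a difference of 1.05 ± 0.11 (SE, n = 2 per group; 95% interval 0.79 to 1.30) or 2.06-fold (adjusted p = 0.0116). Both ICM samples lay above both TE samples and below both morula samples. Its second probe was called at 2.08-fold, the third gave 1.52-fold (adjusted p = 0.0871) and the fourth 1.11-fold. The call ended with median centring (0.89, adjusted p = 0.0442), with the mean over its probes (0.72), and without any of the 4 arrays: without ICM replicate 1 or 2 the difference was 0.98 and 1.11 (adjusted p = 0.0985 and 0.101), and without TE replicate 1 or 2 it was 0.96 and 1.13 (adjusted p = 0.102 and 0.0734). Epiblast genes were higher in the same ICM samples, and their part in the difference of *IMP4* was not tested.

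The snoRNP proteins all had higher means in the ICM than in the TE, by 0.20 to 0.69 with a median of 0.41, but none passed the adjusted p. *FBL* came nearest, at 1.61-fold (95% interval of the log2 difference 0.34 to 1.04, adjusted p = 0.0678), with 0.13 and 0.33 for ICM and -0.33 and -0.58 for TE. *NOL6* was at 1.57-fold (adjusted p = 0.0986), *IMP3* at 1.51-fold (adjusted p = 0.112), *UTP18* at 1.39-fold (adjusted p = 0.0581) and *POLR3E* at 1.59-fold (adjusted p = 0.0875), all towards the ICM. *UTP14A* lay on the side of the TE (1.38-fold, adjusted p = 0.221). For *UTP3* the difference was -0.03 (95% interval -0.25 to 0.18) and for *POLR1E* -0.05 (95% interval -0.28 to 0.17). Of the 103 related genes 0 were called between ICM and TE, and 3 passed without a fold minimum, all higher in the ICM (2.62% of all genes): *WDR12* (1.47-fold), *RCL1* (1.75-fold) and *URB1* (1.70-fold), named after their values were seen.

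Against the whole blastocyst, 0 of the 57 genes were called in the ICM or in the TE by limma, where 0.104% and 0.0478% of all genes were called. At an unadjusted p under 0.05 there were 11 for the ICM, 10 of them higher in the ICM, and 9 for the TE, 8 of them higher in the blastocyst. These were 19.3% and 15.8% of the genes, against 16.3% and 13% of all genes. *IMP4* had the lowest p of the ICM comparison, 1.82-fold higher in the ICM than in the blastocyst (adjusted p = 0.0646), and *NOP10* that of the TE comparison, 1.36-fold higher in the blastocyst (adjusted p = 0.274).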

How the data were processed

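Total RNA of 8 embryo samples was amplified, labelled and hybridized against a blastocyst pool. The deposited intensity values are mean spot signals of both channels before normalization, given with their local background. The log2 ratios that the authors deposited in the series table, normalized by loess with a correction for dye bias, served as an alternative.

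Mean spot signals of 43653 gene probes (45220 spots, 1567 of them controls) were normalized by loess within each array, without background subtraction, in R 4.3.3 with limma 3.58.1. Group means and a dye term, which equals the replicate number, were fitted to all 8 arrays (3 residual degrees of freedom), with Benjamini-Hochberg adjustment of the p-values over all gene probes. Calls required an adjusted p below 0.05 and a 2-fold difference of the brightest probe. A spot counted as above background where its mean exceeded the local background mean by 2 standard deviations, and as saturated from 65000. Of the 57 symbols 55 were current and 2 were synonyms. Any of the 57 genes could be named, and related genes up to 3 called per list; genes named outside the rule are said to be so. The genes and lists were chosen with earlier results of these data known. Replicates of a number share the dye orientation, and the differences between replicates correlated at 0.201 to 0.486 over the pairs of groups (0.338 for ICM and TE). On simulated data for blastocyst against morula, with 43653 probes and 50 changed per fold, the adjusted p passed for 16%, 94%, 96% and 98% of those changed 1.5-fold, 2-fold, 3-fold and 4-fold. The simulated noise was independent between probes, and far fewer probes changed than in the data, where 5002 of 12552 genes passed at any fold. The adjustment was thus stricter in the simulation, and its shares do not give those of the real comparison. Python 3.11.15 with pandas 2.3.3 and matplotlib 3.10.9 drew the figures. The number of arrays limits the precision of every value.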

Additional observations from a re-analysis of the deposited data

Results flagged for a closer look

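*IMP4* differed between the ICM and the TE in its change from the morula. The difference from the morula was -0.33 in the ICM and -1.38 in the TE (log2), which is a gap of 1.05 by the term for that difference in the limma fit (adjusted p = 0.0116, n = 2 per group). Since both changes share the morula samples, the test is the same as that of ICM against TE, and it did not pass both limits with median centring, with the mean over the probes of the gene, or without any of the 4 ICM and TE arrays.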

How the results depend on the processing

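Between blastocyst and morula 10 of 25 calls held under every alternative run at the 2-fold minimum, as did 7 of 18 for ICM against morula, 14 of 29 for TE against morula and 0 of 1 for ICM against TE; *NOL7*, counted in the first 3, had no unsaturated probe and so lacked that alternative. Without the replicate block the counts of calls were 25, 18, 29 and 1, as with it, beside 2161, 2076, 2524 and 166 of all genes. Without a fold minimum 44, 35 and 45 of the 57 genes passed in the comparisons of blastocyst, ICM and TE with the morula, beside 5002, 5088 and 5594 of all 12552 genes. At 1.5-fold 34 passed for the ICM, beside 3854. Of the related genes 57 (1.5-fold) and 69 (no minimum) passed between blastocyst and morula, beside 3811 and 5002 of all genes. Between ICM and TE 2 and 3 of them passed, beside 509 and 555 of all genes. With median centring 29 genes were called for ICM against morula and 0 for ICM against TE, and the median differences were -1.03 (blastocyst against morula), -1.06 (ICM against morula), -1.12 (TE against morula) and 0.127 (ICM against TE). The median for TE against morula was -0.904 with normexp, -0.905 with the mean over probes and -0.915 with unsaturated probes, and that for ICM against TE was 0.20 among the upper 60% of intensities and 0.141 with the mean over probes, where 0 genes were called. With each sample left out in turn, the medians were 0.150 to 0.227 for ICM against TE and -0.991 to -0.898 for TE against morula.

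Some genes changed direction, *RRP7A* from -0.51 and -0.59 and the others from smaller differences. Between blastocyst and morula these were *POP7* (-0.028 with normexp, -0.13 with median centring, -0.085 with the mean over probes, -0.114 to 0.208 with samples left out), *POLR1D* (0.44 with the mean over probes, -0.212 to 0.139 with samples left out), *RRP7A* (0.0093 with the mean over probes) and *EXOSC5* (0.027 unsaturated). For ICM against morula they were *EXOSC5* (-0.189 with the deposited log2 ratios) and *POLR1D* (0.115 with the mean over probes). For TE against morula they were *EXOSC5* (-0.028 with median centring, -0.417 with the deposited log2 ratios, -0.078 with the mean over probes, -0.228 unsaturated, -0.159 to 0.302 with samples left out), *POLR1D* and *RRP7A* (0.166 and 0.236 with the mean over probes) and *POP7* (-0.142 to 0.058 with samples left out). For ICM against TE *POLR1D* lay between -0.109 and 0.105 with samples left out. The cause was not tested. The search of promoters for motifs was not run, since promoter sequences were not used here.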
